A study of Homo sapiens with 15 samples.

Results

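The comparison described here set DU145 cells given a miR-224 mimic against DU145 cells given a miR-452 mimic. Its members are the 4 arrays whose titles name DU145 and one of these mimics, replicates a and c of each, out of 15 arrays in all. DU145 is an established human prostate cancer line from a brain metastasis. Cells in serum-containing medium were reverse transfected with 20 nM of mimic in a lipid reagent and given fresh medium 6 h later. Total RNA was taken at 48 h and hybridised to Affymetrix Human Gene 1.0 ST arrays. The other DU145 groups were 1 array of a scrambled mimic at the same dose and 2 arrays of untransfected cells, and PC3, an established line from a bone metastasis, went through the same 4 conditions with 2 arrays each. Both compared groups therefore carry lipid, a small RNA and a change of medium. Replicate arrays of the miR-224 group correlated with r = 0.99477 and those of the miR-452 group with r = 0.99106 across 18377 genes, and they differed by 0.114 and 0.172 on average on the log2 scale. The labels do not say that replicates were separate cultures, so the p-values reflect array-to-array spread, which may be technical.

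MicroRNAs are short RNAs that guide Argonaute proteins to messenger RNAs, mostly through pairing of the seed near the 5′ end of the microRNA, and the paired transcripts are translated less and often destroyed. A mimic is a synthetic duplex that loads the cell with one such guide, and direct and indirect targets are both expected to move within days. Setting one mimic against another asks which transcripts depend on the sequence of the guide. A gene can be higher with miR-224 because miR-224 raised it or because miR-452 lowered it, and the control arrays are given beside the main genes for that reason.

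The genes of both microRNAs lie on the minus strand of the X chromosome inside GABRE, a gene for a subunit of the GABA-A receptor that spans chrX:151953124-151974676 in GRCh38.p14. The hairpin of MIR224 is at chrX:151958578-151958658 and that of MIR452 at chrX:151959628-151959712, with 969 bases between them. The RefSeq sequences of the hairpins and of their 5′ arms are shown because the 2 treatments differ in the sequence of the mimic. Capitals in the mature sequences mark the seeds. Capitals in the hairpins mark the 5′ arm.
hsa-miR-224-5p: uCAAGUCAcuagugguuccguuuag
hsa-miR-452-5p: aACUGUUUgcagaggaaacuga
MIR224 hairpin: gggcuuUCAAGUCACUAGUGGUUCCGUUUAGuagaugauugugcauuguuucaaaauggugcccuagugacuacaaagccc
MIR452 hairpin: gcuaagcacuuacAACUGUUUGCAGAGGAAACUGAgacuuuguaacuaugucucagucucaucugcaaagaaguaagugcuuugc

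The mature sequences have 25 and 22 bases, at chrX:151958628-151958652 and chrX:151959678-151959699. Their seeds, bases 2 to 8, carry the same base at 2 of 7 positions. The labels do not state the arm or the exact 5′ end of the mimics. GABRE itself measured 5.50 and 5.62 with miR-224, against 5.63 and 5.47 with miR-452, and the 2 groups overlapped (log2 difference 0.01, adjusted p = 0.984). MIR224 and MIR452 were not analysed here.

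Levels are the deposited log2 values, which ran from 4.49 to 14.05 in DU145 with array medians between 6.51 and 6.67. Differences are log2 miR-224 minus miR-452, ± the standard error of the limma fit, so a positive value means higher with miR-224. A gene is said to have passed if its p, adjusted over 18377 genes by Benjamini-Hochberg, was under 0.05. The epithelial markers KRT8, KRT18, EPCAM and CDH1 lay between percentiles 81.7 and 99.8 of mean level in DU145. Defining genes of fibroblasts (0.517 to 58.4), leukocytes (5.88 to 36.5) and endothelium (3.81 to 24.4) mostly lay in the lower part, as did those of neuroendocrine cells (15.1 to 71.3) and the androgen-regulated luminal genes (23.2 to 49). In the longer lists of these other types, no neuroendocrine, fibroblast, leukocyte or endothelial gene passed, and in the androgen-regulated and luminal list 1 of 7 did (STEAP2, -0.42, adjusted p = 0.0295). STEAP2 gave 0.143 and 0.163 without replicates a and c of miR-224 and 0.0604 without an untransfected array. In bulk RNA, fewer cells of a type and less RNA per cell cannot be told apart.

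Between the mimics, 1086 of 18377 genes passed in DU145 (5.91%). With miR-224, 649 were higher (3.53%) and 437 were lower (2.38%). Most differences were small: the median size was 0.48 among the higher and 0.53 among the lower genes, and the largest folds were 2.73 higher and 3.11 lower. Beyond 2-fold, 17 genes lay above (0.0925%) and 30 below (0.163%). Protein-coding genes made up 639 of the higher genes and 424 of the lower ones, and 4 small nucleolar RNA genes were among the lower ones. These 4 are not members of the list of small nucleolar, nuclear and vault RNAs described below. The genes tested of each kind were not counted, so no excess of a kind can be read from these counts.

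These counts rested on single arrays. Without replicate a of miR-224, 148 genes were higher and 176 lower, and without replicate c 124 and 130. Without replicate a of miR-452 the counts were 454 and 787, and without replicate c 1584 and 568. Either untransfected array, which enters only through the estimate of the spread, left 346 and 266 when it was dropped. Of 104 named genes that passed, 52 passed with each DU145 array left out in turn, and none turned its direction. The 15 genes given first in each direction below are all of that kind. A result given without either miR-224 array is from fits that left out one of them at a time.

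**Figure D1:**
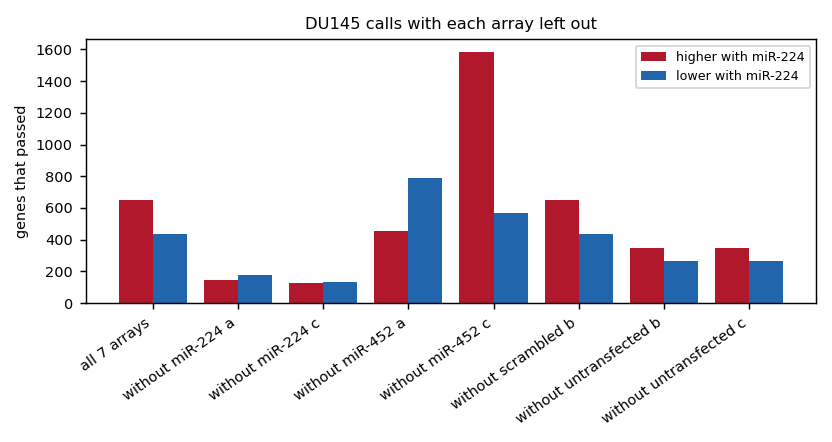
Number of genes that passed (adjusted p under 0.05) higher (red) and lower (blue) with miR-224 than with miR-452 in DU145, with all 7 arrays of the line in the fit and with each array left out in turn. The bars fall to 124 and 130 genes without replicate c of miR-224 and reach 1584 higher genes without replicate c of miR-452.

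The genes highest with miR-224 relative to miR-452 were, in their levels, the genes that lay low with miR-452. Among the 15 largest rises, both miR-452 arrays lay below all 3 control arrays for 15 genes, and both miR-224 arrays lay above all controls for 9 and below them for 1. Over all genes, both miR-452 arrays lay below the controls in 20.8% and above them in 10.4%, and both miR-224 arrays lay above them in 13.1% and below them in 18.7%. Of all 649 higher genes, 553 had both miR-452 arrays below the controls and 209 had both miR-224 arrays above them. Such counts share the mimic arrays with the test that chose the genes, so they describe and do not test.

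DCAKD, which encodes a protein with a dephospho-CoA kinase domain, led the list. It measured 9.54 and 9.58 with miR-224, against 7.95 and 8.28 with miR-452, 9.22 with the scrambled mimic and 9.40 and 9.40 in untransfected cells. The miR-224 arrays thus lay just above the controls and the miR-452 arrays far below, and the difference was 1.45 ± 0.11 (adjusted p = 0.000436). MYBL1, the transcription factor A-MYB, measured 10.94 and 10.85 with miR-224, against 9.40 and 9.71 with miR-452, 10.32 scrambled and 10.94 and 10.89 untransfected. Its difference was 1.34 ± 0.11 (adjusted p = 0.000475), with the miR-224 arrays at the untransfected level. IGF2BP2, an RNA-binding protein of the IGF2 messenger RNA, measured 9.35 and 9.33 with miR-224, against 8.0 and 8.08 with miR-452, 8.82 scrambled and 9.22 and 9.31 untransfected. The groups were wide apart (1.30 ± 0.09, adjusted p = 0.000222).

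GNA12, the alpha subunit of a heterotrimeric G protein, measured 9.31 and 9.36 with miR-224, against 8.03 and 8.09 with miR-452, 9.13 scrambled and 9.23 and 9.19 untransfected (1.27 ± 0.08, adjusted p = 0.000222). TIMP2, an inhibitor of matrix metalloproteinases, measured 10.19 and 10.20 with miR-224, against 8.77 and 9.13 with miR-452, 9.76 scrambled and 10.10 and 10.05 untransfected (1.25 ± 0.12, adjusted p = 0.000702). In both genes the miR-224 arrays lay slightly above every control array. HMGB3, a chromatin protein of the high mobility group, measured 8.37 and 8.71 with miR-224, against 7.17 and 7.50 with miR-452, 7.94 scrambled and 8.54 and 8.38 untransfected (1.20 ± 0.14, adjusted p = 0.0018). Its miR-224 arrays bracketed the untransfected ones.

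SMIM14, a small membrane protein, differed by 1.13 ± 0.11 (adjusted p = 0.000738), with 8.31 and 8.19 with miR-224, against 7.0 and 7.24 with miR-452, 8.03 scrambled and 8.52 and 8.39 untransfected. TMEM184C, a transmembrane protein, lay furthest below untransfected cells with miR-224 among the 15, and further still with miR-452. It measured 8.48 and 8.33 with miR-224, against 7.19 and 7.36 with miR-452, 8.40 scrambled and 8.75 and 8.72 untransfected (1.13 ± 0.10, adjusted p = 0.000497). COQ10B, which binds coenzyme Q in mitochondria, measured 8.22 and 8.27 with miR-224, against 7.15 and 7.10 with miR-452, 7.97 scrambled and 8.47 and 8.49 untransfected (1.12 ± 0.08, adjusted p = 0.000385). NCS1, a neuronal calcium sensor, measured 8.88 and 8.96 with miR-224, against 7.68 and 7.95 with miR-452, 9.10 scrambled and 9.04 and 9.06 untransfected (1.11 ± 0.10, adjusted p = 0.000738), and was the 1 gene of the 15 whose miR-224 arrays also lay below all controls.

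The remaining largest rises all lay above all controls with miR-224, as 9 of the 15 did in all. PNRC2, a nuclear receptor coactivator that also takes part in messenger RNA decapping, measured 10.30 and 10.34 with miR-224, against 8.97 and 9.45 with miR-452, 9.67 scrambled and 9.65 and 9.69 untransfected. The 2 mimics lay on opposite sides of the controls, 0.65 above and 0.46 below the untransfected mean, and differed by 1.11 ± 0.14 (adjusted p = 0.00224). SDC3, the heparan sulphate proteoglycan syndecan-3, had the same layout, with 8.57 and 8.71 with miR-224, against 7.54 and 7.70 with miR-452, 8.0 scrambled and 8.25 and 8.13 untransfected (1.02 ± 0.10, adjusted p = 0.000815). CYP1B1, a cytochrome P450 that oxidises oestrogens and polycyclic hydrocarbons, measured 8.87 and 8.77 with miR-224, against 7.62 and 7.97 with miR-452, 8.26 scrambled and 8.57 and 8.53 untransfected (1.02 ± 0.12, adjusted p = 0.00166). CD70, the ligand of the T cell receptor CD27, measured 8.74 and 8.74 with miR-224, against 7.53 and 7.77 with miR-452, 8.45 scrambled and 8.54 and 8.53 untransfected (1.10 ± 0.10, adjusted p = 0.00055). MIR31HG, the long noncoding host RNA of miR-31, measured 8.19 and 8.20 with miR-224, against 7.01 and 7.28 with miR-452, 7.84 scrambled and 7.90 and 8.02 untransfected (1.05 ± 0.10, adjusted p = 0.000908).

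**Figure D2:**
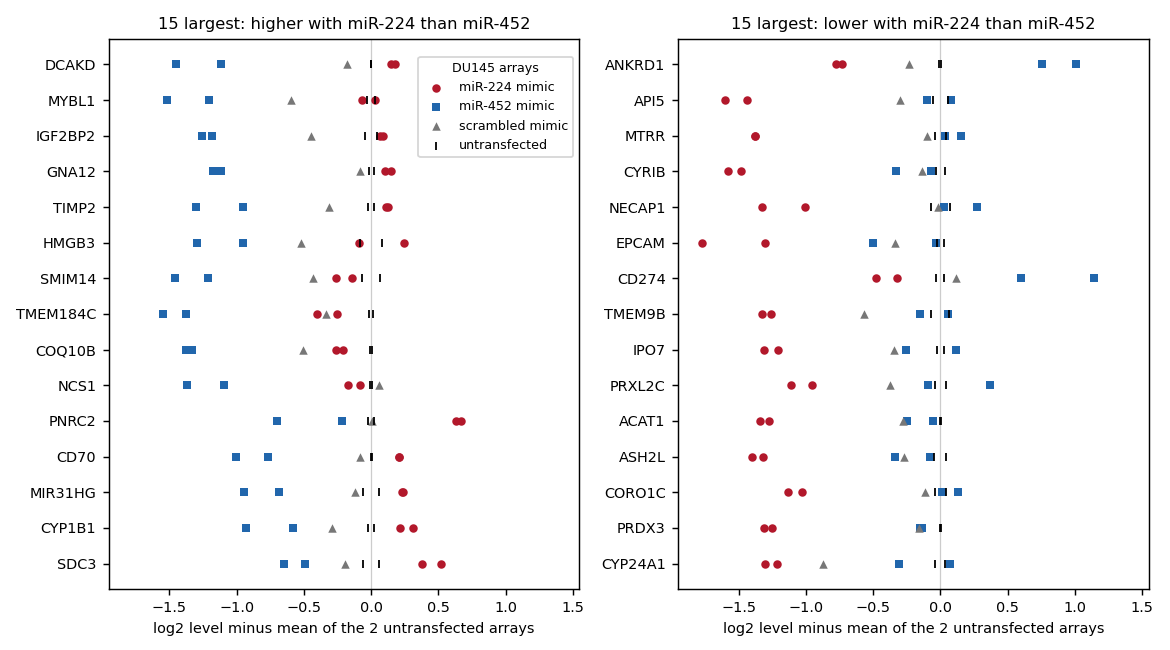
Log2 level of each DU145 array minus the mean of the 2 untransfected arrays, for the 15 largest differences in each direction. Red circles are miR-224 arrays, blue squares miR-452 arrays, grey triangles the scrambled array and black ticks the untransfected arrays. On the left the blue squares lie below every control, and on the right the red circles do.

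The genes lowest with miR-224 showed the mirror image only in part. For all 15 of the largest falls, both miR-224 arrays lay below all 3 control arrays. Both miR-452 arrays lay above all controls for 2 of them and below all controls for 0. Over the 437 lower genes, 389 had both miR-224 arrays below the controls. Both miR-452 arrays lay above the controls for 82 of them and below the controls for 62. The median difference from untransfected cells was -1.28 with miR-224 and -0.048 with miR-452 over the 15.

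ANKRD1, an ankyrin repeat protein whose gene is a standard target of YAP and TEAD, had the largest difference of all and was 1 of the 2 on both sides of the controls. It measured 7.79 and 7.75 with miR-224, against 9.28 and 9.53 with miR-452, 8.29 scrambled and 8.52 and 8.53 untransfected (-1.64 ± 0.10, adjusted p = 0.000222). The other was CD274, which encodes the immune checkpoint ligand PD-L1, with 6.88 and 6.73 with miR-224, against 7.80 and 8.35 with miR-452, 7.32 scrambled and 7.24 and 7.18 untransfected (-1.27 ± 0.15, adjusted p = 0.00203). Relative to untransfected cells, ANKRD1 differed by -0.75 with miR-224 and by 0.88 with miR-452, and CD274 by -0.40 and by 0.87.

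API5, an inhibitor of apoptosis reported elsewhere as a direct miR-224 target, measured 7.97 and 7.81 with miR-224, against 9.31 and 9.49 with miR-452, 9.11 scrambled and 9.35 and 9.47 untransfected (-1.51 ± 0.10, adjusted p = 0.000222). MTRR, the reductase that keeps methionine synthase active, measured 8.53 and 8.53 with miR-224, against 9.94 and 10.06 with miR-452, 9.80 scrambled and 9.94 and 9.86 untransfected (-1.47 ± 0.09, adjusted p = 0.000222). In both, the miR-452 and untransfected arrays lay together. CYRIB, a Rac1-binding protein, measured 7.76 and 7.66 with miR-224, against 8.91 and 9.17 with miR-452, 9.11 scrambled and 9.27 and 9.21 untransfected (-1.33 ± 0.10, adjusted p = 0.000436). NECAP1, a partner of clathrin adaptors in endocytosis, measured 8.09 and 7.76 with miR-224, against 9.11 and 9.36 with miR-452, 9.07 scrambled and 9.16 and 9.02 untransfected (-1.31 ± 0.13, adjusted p = 0.000851). The single scrambled array lay nearer to the miR-452 arrays than to the miR-224 arrays in all 4 genes.

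EPCAM, the epithelial cell adhesion molecule, had the largest standard error of the set. It measured 7.74 and 7.27 with miR-224, against 8.54 and 9.01 with miR-452, 8.71 scrambled and 9.02 and 9.07 untransfected (-1.27 ± 0.17, adjusted p = 0.0038). TMEM9B, a lysosomal membrane protein, measured 7.51 and 7.45 with miR-224, against 8.62 and 8.83 with miR-452, 8.21 scrambled and 8.84 and 8.71 untransfected (-1.25 ± 0.10, adjusted p = 0.000473). IPO7, a nuclear import receptor, measured 9.27 and 9.17 with miR-224, against 10.23 and 10.60 with miR-452, 10.13 scrambled and 10.45 and 10.51 untransfected (-1.19 ± 0.12, adjusted p = 0.000921). PRXL2C, a peroxiredoxin-like protein, differed by -1.17 ± 0.14 (adjusted p = 0.0018).

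ACAT1, which in mitochondria cleaves acetoacetyl-CoA, measured 6.89 and 6.95 with miR-224, against 7.98 and 8.17 with miR-452, 7.95 scrambled and 8.23 and 8.22 untransfected (-1.15 ± 0.09, adjusted p = 0.000475). PRDX3, the mitochondrial peroxiredoxin, measured 9.36 and 9.29 with miR-224, against 10.46 and 10.47 with miR-452, 10.45 scrambled and 10.61 and 10.61 untransfected (-1.14 ± 0.08, adjusted p = 0.000362). NDUFA8, a subunit of respiratory complex I that was not among these 15, measured 7.34 and 7.25 with miR-224, against 8.19 and 8.52 with miR-452 (-1.06 ± 0.11, adjusted p = 0.00135), and it was the only 1 of 31 measured genes of the respiratory chain and ATP synthase that passed. ASH2L, a core subunit of histone H3 lysine 4 methyltransferases, fell by 1.15 ± 0.10 (adjusted p = 0.00059), and CORO1C, an actin-binding coronin, fell by 1.15 ± 0.09 (adjusted p = 0.000436). CYP24A1, which inactivates vitamin D, measured 6.97 and 7.06 with miR-224, against 7.97 and 8.34 with miR-452, 7.40 scrambled and 8.31 and 8.24 untransfected (-1.14 ± 0.12, adjusted p = 0.00117). Here the scrambled array itself lay well below untransfected cells, nearer to miR-224.

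Genes reported elsewhere as direct targets moved towards the side of their own microRNA where they passed, though most did not pass. Of 28 measured genes from reports on miR-224, 0 were higher and 5 were lower with miR-224, and the list's median difference was -0.02, against 0.01 over all genes. Beside API5 these were TPD52, a vesicle trafficking protein amplified in prostate cancer, AP2M1, the mu subunit of the clathrin adaptor, SMAD4, the shared SMAD of TGF-beta and BMP signalling, and MBD2, which binds methylated DNA. TPD52 measured 6.99 and 6.92 with miR-224, against 7.62 and 7.65 with miR-452 (-0.68 ± 0.08, adjusted p = 0.0023). AP2M1 measured 9.55 and 9.60 with miR-224, against 10.21 and 10.29 with miR-452 (-0.68 ± 0.09, adjusted p = 0.00238). The groups did not overlap for either gene. SMAD4 measured 8.09 and 8.11 with miR-224, against 8.51 and 8.68 with miR-452, 8.66 scrambled and 9.20 and 9.23 untransfected (-0.50 ± 0.09, adjusted p = 0.0124). All 5 mimic and scrambled arrays of SMAD4 lay below the untransfected ones. Its call was lost without either miR-224 array (adjusted p = 0.0794 without a and 0.0928 without c), and that of MBD2 (-0.52 ± 0.10, adjusted p = 0.0191) without replicate c of miR-224 (0.181).

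Of 11 measured genes from reports on miR-452, 3 were higher with miR-224 and 0 were lower, against 3.53% and 2.38% of all genes. The list's median was 0.16. CDKN1B, the cell cycle inhibitor p27, measured 8.18 and 8.15 with miR-224, against 7.55 and 7.71 with miR-452, 7.74 scrambled and 8.15 and 8.17 untransfected (0.54 ± 0.09, adjusted p = 0.00831). Its scrambled array lay beside the miR-452 arrays. WWP1, a ubiquitin ligase, measured 9.32 and 9.21 with miR-224, against 8.64 and 8.81 with miR-452, 9.12 scrambled and 9.29 and 9.25 untransfected (0.54 ± 0.09, adjusted p = 0.0104). IGF1R, the receptor of insulin-like growth factor 1, differed by 0.39 ± 0.10 (adjusted p = 0.0473). None of the 3 passed without one of the miR-224 arrays, so the count of 3 became 0: without a, the adjusted p was 0.0635 for CDKN1B, 0.0824 for WWP1 and 0.157 for IGF1R, and without c it was 0.0657, 0.0521 and 0.273. IGF1R was also lost without replicate a of miR-452 (0.0865) or an untransfected array (0.112).

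Adhesion and cell shape genes moved in both directions. Of 21 measured epithelial junction and keratin genes, 1 was higher and 4 were lower with miR-224, with a median of -0.12. CLDN1, a tight junction claudin, differed nearly as much as EPCAM did but lay otherwise against the controls. It measured 10.32 and 10.17 with miR-224, against 11.29 and 11.39 with miR-452, 10.90 scrambled and 10.47 and 10.44 untransfected (-1.09 ± 0.09, adjusted p = 0.000497). Its miR-224 arrays lay near untransfected cells and its miR-452 arrays far above them. KRT8, a keratin of simple epithelia, was lower by less (-0.35, adjusted p = 0.0369), as was CLDN7 (-0.50 ± 0.10, adjusted p = 0.0207), while CLDN4 was higher (0.53 ± 0.10, adjusted p = 0.0185). Without either miR-224 array the list's counts were 0 higher and 2 lower, CLDN7 giving 0.136 without a and 0.0743 without c, and CLDN4 0.057 and 0.166. EPCAM and CLDN1 passed in each of these fits, and KRT8 did not.

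Of 14 measured mesenchymal markers, 3 were higher and 1 was lower with miR-224. TAGLN, the actin-binding protein transgelin, measured 7.59 and 7.57 with miR-224, against 6.79 and 6.86 with miR-452, 7.48 scrambled and 7.51 and 7.46 untransfected (0.76 ± 0.08, adjusted p = 0.00149). VIM, the intermediate filament vimentin, measured 12.00 and 11.92 with miR-224, against 11.51 and 11.62 with miR-452, 11.90 scrambled and 11.98 and 12.07 untransfected (0.40 ± 0.09, adjusted p = 0.0323). The miR-224 arrays lay just above the controls for TAGLN and among them for VIM. SNAI2, a repressor of epithelial genes, went the other way, with 7.30 and 6.97 with miR-224, against 7.85 and 7.90 with miR-452, 7.80 scrambled and 7.76 and 7.85 untransfected (-0.74 ± 0.11, adjusted p = 0.00611). AXL, a receptor tyrosine kinase on this list, is described with its relatives below. VIM was lost without replicate a (0.183) or c (0.137) of miR-224, replicate a of miR-452 (0.0636) or an untransfected array (0.0829), while TAGLN and SNAI2 passed with each array left out, and the list then held 1 higher and 1 lower without either miR-224 array.

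Receptors and substrates of the matrix also moved. Among 20 measured collagens, laminins and integrins, 3 were higher and 2 lower with miR-224, and the median was 0.07. ITGA2, the integrin alpha 2 chain of the collagen receptor, measured 8.51 and 8.49 with miR-224, against 9.20 and 9.58 with miR-452, 8.90 scrambled and 8.80 and 8.75 untransfected (-0.89 ± 0.12, adjusted p = 0.00335), with the 2 mimics on opposite sides of the controls. LAMC1, the laminin gamma 1 chain, measured 9.88 and 9.85 with miR-224, against 9.11 and 9.31 with miR-452 (0.66 ± 0.09, adjusted p = 0.00475). Both kept their calls with each array left out. ITGA5, a fibronectin receptor chain, measured 10.09 and 10.10 with miR-224, against 9.30 and 9.65 with miR-452 (0.62 ± 0.11, adjusted p = 0.0135), and ITGA3, a laminin receptor chain, was lower (-0.48 ± 0.09, adjusted p = 0.0177). Without replicate a and without replicate c of miR-224, ITGA5 gave 0.0692 and 0.0936, ITGA3 gave 0.118 and 0.0857, and the list held 1 higher and 1 lower.

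Of 21 measured matrix proteases and inhibitors, TIMP2 was the 1 higher gene and ADAM10 and PLAUR were the 2 lower ones. ADAM10, a sheddase of cell surface proteins, measured 9.43 and 9.25 with miR-224, against 10.04 and 10.07 with miR-452, 10.11 scrambled and 10.47 and 10.45 untransfected (-0.71 ± 0.09, adjusted p = 0.0026). All arrays of the transfected groups lay below the untransfected ones, the miR-224 arrays furthest. PLAUR, the urokinase receptor, was close to the threshold (-0.35 ± 0.09, adjusted p = 0.0469), and its adjusted p was 0.224 without replicate a of miR-224, 0.19 without replicate c of it, 0.0603 without replicate c of miR-452 and 0.13 without an untransfected array.

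The TGF-beta list held calls in both directions, 4 higher and 3 lower of 19 measured, with a median of 0.11. SMAD2, a receptor-activated SMAD, measured 8.65 and 8.63 with miR-224, against 7.91 and 8.20 with miR-452, 8.39 scrambled and 8.93 and 8.92 untransfected (0.59 ± 0.10, adjusted p = 0.0111). TGFB2, a ligand, measured 9.85 and 9.80 with miR-224, against 9.28 and 9.42 with miR-452, 9.18 scrambled and 9.45 and 9.39 untransfected (0.48 ± 0.09, adjusted p = 0.0143). ID3, a target gene of BMP signalling, measured 7.84 and 7.90 with miR-224, against 8.41 and 8.59 with miR-452, 8.61 scrambled and 8.54 and 8.49 untransfected (-0.63 ± 0.09, adjusted p = 0.00502). ID3 was the 1 call left without either miR-224 array. Without a, SMAD2 gave 0.0689 and TGFB2 0.0958, and without c they gave 0.0784 and 0.0923.

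Of 19 measured YAP and TEAD target genes, miR-224 arrays were higher for 4 and lower for 2 (median 0.04), so the fall of ANKRD1 was not shared by the list. NT5E, the ectonucleotidase CD73, measured 9.51 and 9.42 with miR-224, against 8.66 and 8.97 with miR-452, 9.99 scrambled and 9.88 and 9.81 untransfected (0.65 ± 0.11, adjusted p = 0.00967). Both mimics lay below all controls for NT5E, miR-452 further. F3, tissue factor, was lower with miR-224 (-0.46 ± 0.08, adjusted p = 0.0141). Without either miR-224 array the counts were 0 higher and 1 lower, the 1 being ANKRD1, with NT5E at 0.0689 and 0.0521 and F3 at 0.108 and 0.0753 without a and without c.

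AXL is a receptor of the family that also holds TYRO3 and MERTK and binds GAS6 and PROS1. It measured 11.97 and 11.90 with miR-224, against 11.49 and 11.48 with miR-452, 10.56 with the scrambled mimic and 11.78 and 11.77 in untransfected cells (0.45 ± 0.08, adjusted p = 0.0135). The scrambled array lay below both mimics for AXL. GAS6 measured 8.01 and 8.09 with miR-224, against 7.71 and 7.56 with miR-452 (0.42 ± 0.09, adjusted p = 0.0271). TYRO3 differed by 0.42 ± 0.11 without passing (adjusted p = 0.0528), as did PROS1 (-0.29 ± 0.09, adjusted p = 0.0908) and MERTK (0.05 ± 0.09, adjusted p = 0.897). Neither call was kept without a miR-224 array: AXL gave 0.102 and 0.0812 without a and c, and GAS6 gave 0.094 and 0.211, and 0.0718 without an untransfected array.

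Cell cycle genes fell into 2 lists with opposite medians. Of 28 measured mitosis genes, 6 were higher and 1 was lower with miR-224, 23 had a difference above 0, and the median was 0.27. KIF20A, a kinesin of cytokinesis, measured 10.83 and 10.63 with miR-224, against 10.02 and 10.19 with miR-452, 10.38 scrambled and 10.76 and 10.79 untransfected (0.62 ± 0.10, adjusted p = 0.00756). CENPF, a kinetochore protein, measured 10.17 and 10.06 with miR-224, against 9.49 and 9.63 with miR-452, 9.68 scrambled and 10.24 and 10.14 untransfected (0.56 ± 0.09, adjusted p = 0.00893). In both, the miR-224 arrays were near untransfected cells and the miR-452 arrays below every control. CCNA2, cyclin A2 (0.50 ± 0.09, adjusted p = 0.0124), and BUB1, a spindle checkpoint kinase (0.58 ± 0.11, adjusted p = 0.0143), were higher too. The count of 6 moved with single arrays, to 0 higher without replicate a of miR-224, 2 without replicate c of it, 14 without replicate c of miR-452, 4 without replicate a of it, and 4 without an untransfected array. Without replicate a of miR-224, KIF20A gave an adjusted p of 0.0647, CENPF 0.0748, CCNA2 0.102 and BUB1 0.101, and without replicate c CCNA2 gave 0.0511 and BUB1 0.0557.

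Of 29 measured genes of DNA replication and entry into S phase, 0 were higher and 3 were lower with miR-224, and the median was -0.15. RRM2, the small subunit of ribonucleotide reductase, measured 8.56 and 8.50 with miR-224, against 9.21 and 9.21 with miR-452, 9.39 scrambled and 9.44 and 9.50 untransfected (-0.68 ± 0.08, adjusted p = 0.00219). It passed with each array left out. MCM2, a subunit of the replicative helicase, was lower (-0.41 ± 0.08, adjusted p = 0.0213), as was CCNE2, cyclin E2 (-0.57 ± 0.14, adjusted p = 0.0394). Without replicate a and c of miR-224, MCM2 gave 0.0953 and 0.175 and CCNE2 gave 0.0761 and 0.273. An untransfected array left out gave 0.0633 and 0.0581 for the 2 genes, and replicate c of miR-452 left out gave 0.0664 for CCNE2. Of 21 measured replication-dependent histone genes, 0 passed, and 3 were higher at an unadjusted p under 0.05, H3C2 among them (0.29 ± 0.10, adjusted p = 0.134).

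**Figure D3:**
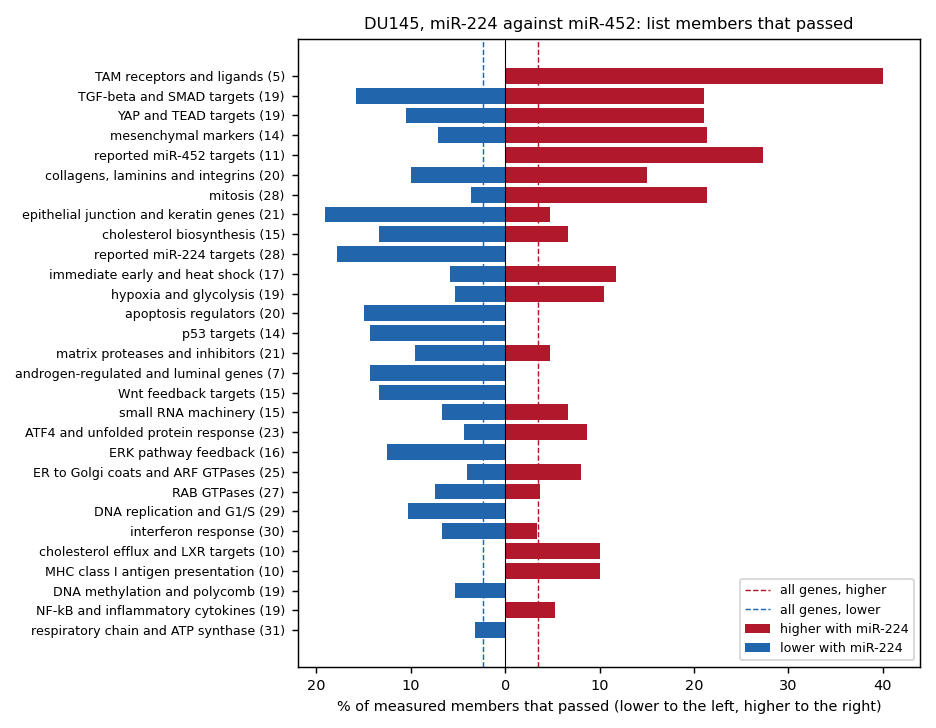
Share of the measured members of each gene list that passed in DU145, higher with miR-224 to the right in red and lower to the left in blue, for the lists with at least 1 call. The number of measured genes stands in brackets, and dashed lines give the shares over all genes, 3.53% higher and 2.38% lower. TAM receptors are AXL, TYRO3 and MERTK.

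The p53 target and apoptosis genes that passed were lower with miR-224. PMAIP1, the death-promoting BCL2 family member NOXA, measured 7.71 and 7.69 with miR-224, against 8.14 and 8.57 with miR-452, 7.37 scrambled and 7.72 and 7.77 untransfected (-0.66 ± 0.13, adjusted p = 0.0176), so that the miR-452 arrays stood above all others. CDKN1A, the cell cycle inhibitor p21, measured 7.28 and 7.65 with miR-224, against 7.95 and 8.15 with miR-452, 7.71 scrambled and 7.85 and 7.96 untransfected (-0.59 ± 0.13, adjusted p = 0.0292). These were the 2 lower genes of 14 measured p53 targets, and 0 were higher. Over all genes 2.38% were lower, and the list's median was 0.04, with 9 of the 14 above 0. MCL1, which opposes PMAIP1, measured 10.11 and 10.09 with miR-224, against 10.48 and 10.70 with miR-452 (-0.49 ± 0.10, adjusted p = 0.019), and with API5 and PMAIP1 it made up the 3 lower genes of 20 measured apoptosis regulators. Without replicate a of miR-224, PMAIP1 gave 0.0795, CDKN1A 0.163 and MCL1 0.0899. Without replicate c of it PMAIP1 gave 0.114 and MCL1 0.138, and CDKN1A gave 0.0769 without replicate c of miR-452.

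Of 23 measured genes of the ATF4 and unfolded protein response, 2 were higher and 1 was lower. VLDLR, a lipoprotein receptor, measured 8.19 and 8.26 with miR-224, against 7.46 and 7.59 with miR-452, 8.03 scrambled and 8.12 and 8.10 untransfected (0.70 ± 0.09, adjusted p = 0.00242), and it passed with each array left out. SLC7A11, the cystine transporter, measured 9.50 and 9.44 with miR-224, against 9.79 and 9.84 with miR-452, 8.66 scrambled and 9.56 and 9.55 untransfected (-0.35 ± 0.08, adjusted p = 0.0399). Its scrambled array lay lowest of all. Without a miR-224 array SLC7A11 gave 0.134 and 0.279, and without an untransfected array 0.121. PDIA4, a disulphide isomerase of the endoplasmic reticulum, was the other higher gene (0.45 ± 0.09, adjusted p = 0.0199) and gave 0.0859, 0.163 and 0.0524 in the same fits, so that the list then held 1 higher and 0 lower.

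Of 19 measured genes of hypoxia and glycolysis, 2 were higher and 1 lower, with BNIP3, a mitophagy receptor, at 11.13 and 11.04 with miR-224, against 10.46 and 10.60 with miR-452, 11.00 scrambled and 11.00 and 11.04 untransfected (0.56 ± 0.09, adjusted p = 0.00744). The other higher gene was PGK1, a glycolytic kinase (0.40 ± 0.10, adjusted p = 0.0412), and the lower one PDK1, an inhibitor of pyruvate dehydrogenase (-0.40 ± 0.09, adjusted p = 0.0294). None of the 3 passed without replicate a of miR-224 (BNIP3 0.0646, PGK1 0.143, PDK1 0.118). PGK1 and PDK1 were also lost without replicate c of it (0.244 and 0.207) and without an untransfected array (0.0981 and 0.0799), and PGK1 without replicate a of miR-452 (0.0742).

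Of 15 measured genes of cholesterol biosynthesis, 1 was higher (FDPS, 0.39 ± 0.09, adjusted p = 0.041) and 2 were lower with miR-224 (HMGCS1 and SREBF2, with SREBF2 at -0.37 ± 0.09, adjusted p = 0.0339). HMGCS1, a synthase early in the pathway, measured 8.50 and 8.46 with miR-224, against 9.12 and 9.24 with miR-452, 9.34 scrambled and 9.59 and 9.44 untransfected (-0.70 ± 0.09, adjusted p = 0.00339). ABCA1, the cholesterol exporter, measured 7.64 and 7.68 with miR-224, against 6.77 and 6.96 with miR-452, 6.63 scrambled and 6.98 and 6.87 untransfected (0.79 ± 0.10, adjusted p = 0.002). Its miR-224 arrays lay above every control and its miR-452 arrays among them, and ABCA1 was the 1 call of 10 measured genes of cholesterol efflux. HMGCS1 and ABCA1 passed with each array left out. The biosynthesis list held 0 higher and 1 lower without either miR-224 array, with FDPS at 0.137 and 0.258 and SREBF2 at 0.153 and 0.204 without a and c, and the same counts without an untransfected array (FDPS 0.0987, SREBF2 0.0967). FDPS was also lost without replicate a of miR-452 (0.0794).

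DKK1, a secreted inhibitor of Wnt signalling, measured 10.09 and 10.03 with miR-224, against 10.90 and 11.07 with miR-452, 10.66 scrambled and 10.72 and 10.75 untransfected (-0.92 ± 0.09, adjusted p = 0.00087). With CCND1, cyclin D1 (-0.38 ± 0.08, adjusted p = 0.0294), it made up the 2 lower genes of 15 measured Wnt feedback targets. DKK1 passed with each array left out, and CCND1 gave 0.0999 without replicate a of miR-224, 0.236 without replicate c of it and 0.0895 without an untransfected array.

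Of 25 measured genes of ER to Golgi coats and ARF GTPases, 2 were higher and 1 was lower. ARF4, a GTPase of the Golgi, measured 10.64 and 10.68 with miR-224, against 9.79 and 9.94 with miR-452, 10.58 scrambled and 10.67 and 10.59 untransfected (0.80 ± 0.09, adjusted p = 0.00166), and it passed with each array left out. SEC23A, a COPII coat subunit, was higher (0.46 ± 0.09, adjusted p = 0.0194), and COPG1, a COPI coat subunit, was lower (-0.45 ± 0.10, adjusted p = 0.0319). Without replicates a and c of miR-224, SEC23A gave 0.139 and 0.0654 and COPG1 0.136 and 0.181, and without an untransfected array they gave 0.0528 and 0.0681. Of 15 measured genes of the small RNA machinery, 1 was higher and 1 was lower. AGO4, an Argonaute protein, measured 6.92 and 6.95 with miR-224, against 6.42 and 6.35 with miR-452, 6.45 scrambled and 6.93 and 6.87 untransfected (0.55 ± 0.08, adjusted p = 0.0062, and 0.0637 without replicate c of miR-224). Its scrambled array lay with miR-452. XPO5, the export receptor of microRNA precursors, was lower (-0.43 ± 0.10, adjusted p = 0.0373), and gave 0.173 without either miR-224 array, 0.056 without replicate c of miR-452 and 0.0807 without an untransfected array.

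Lists with 0 calls were the RNA sensors and adaptors (13 measured), the cytosolic ribosomal proteins (18) and the small nucleolar, nuclear and vault RNAs (23), beside the histones and the lists of other cell types given above. At an unadjusted p under 0.05, 1 sensor was higher and 1 lower, 1 ribosomal gene was higher and 1 lower, and 2 of the small RNAs were lower in the limma fit. The member of these lists with the smallest p was ADAR, an RNA-editing enzyme induced by interferon (-0.35 ± 0.10, adjusted p = 0.063).

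The same comparison in PC3 used other arrays, normalized apart, so levels are not set across the lines and only differences are. In PC3, 3400 genes passed (18.5%), 2299 higher (12.5%) and 1101 lower (5.99%) with miR-224. Of the genes higher in DU145, 303 were also higher in PC3, which is 46.69% of the DU145 calls and 13.18% of the PC3 calls and 1.65% of all genes. Of those lower in DU145, 218 were also lower in PC3, 49.89% and 19.8% of each and 1.19% of all genes. The sign alone was shared by 529 of 649 higher genes and 367 of 437 lower genes. The same share over all genes was not counted, so these counts stand without a baseline. The median PC3 difference was 0.26 for the DU145-higher genes, against 0.48 in DU145 itself, and -0.29 for the DU145-lower genes, against -0.53. Across all genes the differences of the 2 lines correlated with r = 0.4105 (Spearman's rank correlation 0.3145). Genes are not independent replicates. The count shared in both directions was 521, and it was 195 and 177 without replicate a and c of miR-224 in DU145, 862 without replicate c of miR-452 in DU145, and 345 without a DU145 untransfected array.

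The 8 genes higher in both lines by the widest margin were DCAKD, IGF2BP2, TIMP2, SMIM14, TMEM184C, COQ10B, NCS1 and SERINC1. For all 8, both DU145 miR-452 arrays lay below every control array of that line. In PC3, DCAKD measured 10.68 and 10.95 with miR-224, against 9.52 and 9.53 with miR-452 (1.29 ± 0.10, adjusted p = 1.67e-05). COQ10B differed more in PC3, with 9.99 and 9.88 with miR-224, against 7.98 and 8.16 with miR-452 (1.87 ± 0.11, adjusted p = 6.26e-06). SERINC1, a membrane protein linked to serine lipids, measured 8.41 and 8.34 with miR-224, against 7.28 and 7.57 with miR-452 in DU145 (0.95 ± 0.11, adjusted p = 0.00149), and differed by 1.78 in PC3. For COQ10B and SERINC1 the difference between lines passed as well, at -0.75 (adjusted p = 0.00946) and -0.82 (adjusted p = 0.00643). It passed for TMEM184C too (-0.48, adjusted p = 0.0405), but not with single arrays left out, among them replicate b of miR-224 in PC3 (0.184) and replicate c of it in DU145 (0.169).

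The 8 genes lower in both lines by the widest margin were EPCAM, TMEM9B, ACAT1, PRDX3, C1orf116, NEK7, UBE2J1 and LYN, and for all 8 both DU145 miR-224 arrays lay below every control. EPCAM differed by -1.27 in DU145 and by -2.02 in PC3, where it measured 6.85 and 7.11 with miR-224, against 8.98 and 9.01 with miR-452. The difference between lines did not pass for EPCAM (0.75, adjusted p = 0.0853). C1orf116, a gene raised by androgens in prostate cells, measured 7.56 and 7.56 with miR-224, against 8.61 and 8.71 with miR-452 in DU145 (-1.10 ± 0.09, adjusted p = 0.000436). NEK7, a kinase that also serves the NLRP3 inflammasome, measured 7.94 and 7.81 with miR-224, against 8.85 and 9.14 with miR-452 (-1.12 ± 0.11, adjusted p = 0.000908). UBE2J1, a ubiquitin-conjugating enzyme of the endoplasmic reticulum, measured 8.69 and 8.62 with miR-224, against 9.66 and 9.77 with miR-452 (-1.06 ± 0.09, adjusted p = 0.000497). LYN, a SRC family kinase, measured 8.82 and 8.88 with miR-224, against 9.81 and 9.97 with miR-452 (-1.04 ± 0.09, adjusted p = 0.000527). The PC3 differences of the last 4 lay close to these, at -1.41, -1.09, -1.08 and -1.13. In PC3 the miR-224 mean lay below both control means for all 8. The PC3 miR-452 mean stood above both control means for C1orf116, EPCAM and LYN, and narrowly for TMEM9B and NEK7. C1orf116 averaged 7.36 with miR-224 in PC3, against 8.77 with miR-452, 7.90 scrambled and 7.59 untransfected. For EPCAM the PC3 controls averaged 7.48 scrambled and 8.03 untransfected, below both miR-452 arrays. LYN averaged 7.13 with miR-224 in PC3, against 8.25 with miR-452, 7.29 scrambled and 7.93 untransfected.

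**Figure D4:**
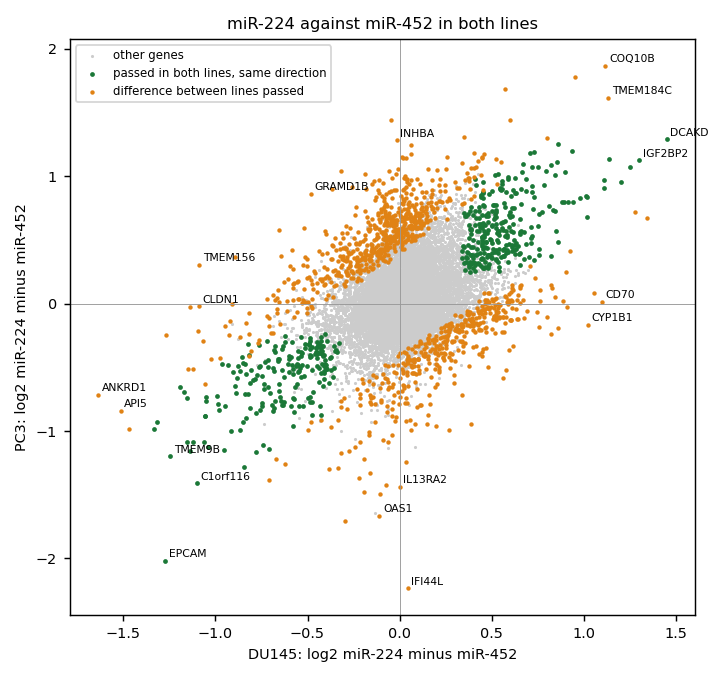
Log2 difference miR-224 minus miR-452 of each of 18377 genes in DU145 (horizontal) and in PC3 (vertical). Green points passed in both lines in the same direction without a difference between lines, orange points passed the test of that difference (1050 genes), and grey points are the other genes. CD70, CYP1B1 and CLDN1 lie far out along the DU145 axis alone and IFI44L, OAS1 and IL13RA2 along the PC3 axis alone.

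The size of the miR-224 against miR-452 difference was tested against that in PC3 for every gene. It differed between the lines for 1050 genes (5.71%), being higher in DU145 for 424 (2.31%) and lower for 626 (3.41%). The count was 286 without replicate b of miR-224 in PC3, 422 and 634 without replicates c and b of miR-452 in PC3, and 380 and 629 without replicates c and a of miR-224 in DU145. Without replicate a of miR-452 in DU145 it was 1573. With the replicate letter as a block in the fit, the count was 115, with 49 higher and 66 lower in DU145. Several of the largest DU145 differences were larger than in PC3 by the test without a block. CD70 differed by 1.10 in DU145 and by 0.02 in PC3 (difference 1.08, adjusted p = 0.000515), and CYP1B1 by 1.02 and -0.16 (1.18, adjusted p = 0.000921). MIR31HG differed by 1.05 in DU145 and 0.08 in PC3 (0.97, adjusted p = 0.00128). Among the falls, CLDN1 (-1.09 in DU145 and -0.02 in PC3, adjusted p = 0.000342) and CYP24A1 (-1.14 and -0.03, adjusted p = 0.000754) stood apart likewise. The test passed for each of these 5 genes with every array of either line left out. Their levels in PC3 were not alike. On the 4 PC3 mimic arrays CYP24A1 lay between 5.07 and 5.16, CYP1B1 between 5.44 and 5.81 and CD70 between 6.27 and 6.42, below the array medians of that line, which lay between 6.94 and 7.05. CLDN1 (8.65 to 8.69) and MIR31HG (9.70 to 9.82) lay above those medians.

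Genes called in opposite directions in the 2 lines were few. Of the 649 DU145-higher genes, 12 were lower in PC3, where 5.99% of all genes were lower. Of the 437 DU145-lower genes, 16 were higher in PC3, where 12.5% of all genes were higher. PMAIP1 differed by -0.66 in DU145 and by 0.57 in PC3 (difference -1.23, adjusted p = 0.000748). GRAMD1B, a protein that moves cholesterol to the endoplasmic reticulum, measured 10.31 and 10.39 with miR-224, against 10.79 and 10.88 with miR-452 in DU145 (-0.48 ± 0.09, adjusted p = 0.0113), and 10.97 and 10.96 with miR-224, against 10.19 and 10.01 with miR-452 in PC3 (0.86 ± 0.08, adjusted p = 5.6e-05). ITGA2 (-0.89 in DU145, 0.36 in PC3, difference -1.26, adjusted p = 0.000515), SLC7A11 (-0.35, 0.52 and -0.87, adjusted p = 0.000475) and TGFB2 (0.48, -0.50 and 0.97, adjusted p = 0.00213) did the same. The difference between lines passed for these 5 genes with every array left out. The calls within a line did not always: in DU145 those of GRAMD1B (adjusted p = 0.0883 and 0.0683), PMAIP1, SLC7A11 and TGFB2 were lost without a miR-224 array, as given above for the last 3 (PMAIP1 0.0795 and 0.114, SLC7A11 0.134 and 0.279, TGFB2 0.0958 and 0.0923). In PC3 the call of ITGA2 was lost without replicate b of miR-224 (0.0915) or c of miR-452 (0.106), and that of TGFB2 without replicate a of miR-224 (0.0921) or c of miR-452 (0.0613).

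Of all the lists, the interferon response genes had the largest share of members that differed between the lines. Such genes are switched on by type I interferon and by sensors of foreign RNA, and they include antiviral enzymes such as OAS1. In DU145, 1 of 30 measured genes was higher and 2 were lower with miR-224, with a median difference of -0.10. In PC3, 0 were higher and 23 were lower, with a median of -0.79. The difference between lines passed for 17 of the 30, all higher in DU145, against 2.31% of all genes, and that count stayed between 14 and 19 with each array of either line left out. With the replicate letter as a block in the fit, 49 of all genes passed as higher in DU145. The list's count in that fit is not given here. IFI44L, an interferon-induced gene, measured 5.57 and 5.51 with miR-224, against 5.48 and 5.51 with miR-452 in DU145, and 8.13 and 8.08 with miR-224, against 10.46 and 10.22 with miR-452 in PC3. It differed by 0.04 in DU145 and by -2.24 in PC3, the smallest p of all genes for the difference between lines (2.28, adjusted p = 1.71e-06). OAS1 measured 6.30 and 6.30 with miR-224, against 6.54 and 6.29 with miR-452 in DU145, where it did not pass (-0.11, adjusted p = 0.7). It differed by -1.67 in PC3 (difference 1.56, adjusted p = 0.000225). In PC3, OAS1 averaged 7.89 with miR-224, against 9.55 with miR-452, 7.97 scrambled and 7.86 untransfected. IFI44L averaged 8.11, 10.34, 8.91 and 8.49 there in the same order. For both genes the miR-452 mean of PC3 stood above both control means. The miR-224 mean lay between them for OAS1 and below them for IFI44L. In DU145, both IFI44L and OAS1 lay below the array medians.

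The 3 interferon genes that passed in DU145 did not move together. UBE2L6, the conjugating enzyme of ISG15, measured 8.44 and 8.55 with miR-224, against 8.07 and 8.06 with miR-452, 8.31 scrambled and 8.26 and 8.28 untransfected (0.43 ± 0.09, adjusted p = 0.0185), while it was lower in PC3 (-0.39, adjusted p = 0.00833). SAMD9, an antiviral factor, measured 6.72 and 6.57 with miR-224, against 7.21 and 7.49 with miR-452, 6.64 scrambled and 7.68 and 7.69 untransfected (-0.71 ± 0.11, adjusted p = 0.00629). Its scrambled array lay with the miR-224 arrays. HERC6 fell by 0.43 ± 0.10 (adjusted p = 0.0405). Without replicate c of miR-224 all 3 calls were lost, with adjusted p of 0.184 for UBE2L6, 0.0648 for SAMD9 and 0.218 for HERC6, and without replicate a UBE2L6 gave 0.0635 and HERC6 0.155. HERC6 was also lost without replicate c of miR-452 (0.0629), and an untransfected array left out gave 0.057 for UBE2L6 and 0.0811 for HERC6. The PC3 call of UBE2L6 was lost without replicate a of miR-224 (0.0584) or b of miR-452 (0.0597).

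**Figure D5:**
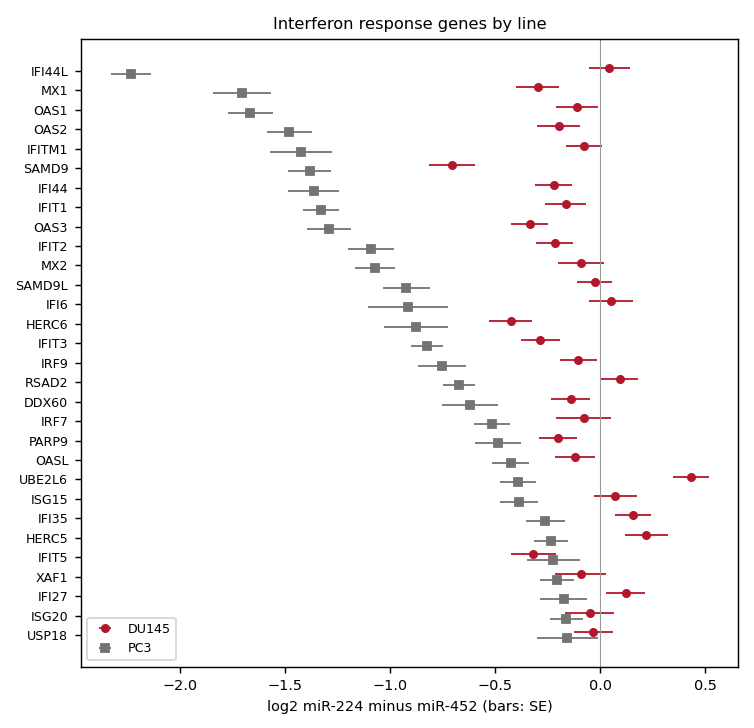
Log2 difference miR-224 minus miR-452 ± standard error for the 30 measured interferon response genes, in DU145 (red circles, above) and PC3 (grey squares, below), ordered by the PC3 value. The DU145 values lie between -0.71 and 0.43, and 23 of the PC3 values passed below 0.

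The counts of other lists differed between the lines too. Calls were more frequent in PC3 over the whole array, at 18.5% against 5.91% in DU145. The PC3 calls split into 12.5% above 0 and 5.99% below, and the DU145 calls into 3.53% and 2.38%. For the difference between lines, the shares over all genes were 2.31% higher and 3.41% lower in DU145. List counts from the 2 lines therefore stand against unequal baselines. The list of ERK pathway feedback holds genes induced by ERK signalling, some of which dampen it. Of its 16 members, 0 were higher and 2 lower in DU145, against 7 higher and 0 lower in PC3. The difference between lines passed for 6, all lower in DU145. That count was 2 without replicate c of miR-452 in PC3 and 4 without any of several others, among them either DU145 miR-224 array. The 2 lower genes in DU145 were CCND1, above, and ETV4, an ETS factor (-0.45 ± 0.10, adjusted p = 0.0345). The DUSP, SPRY and SPRED genes of the list, which dampen the pathway, did not pass in DU145. ETV4 gave 0.173 and 0.145 without replicates a and c of miR-224, 0.051 without replicate c of miR-452 and 0.0736 without an untransfected array. The p53 targets, 0 higher and 2 lower of 14 in DU145, were 5 higher and 0 lower in PC3. For them the difference between lines passed for 1 gene higher and 5 genes lower in DU145. DNA replication genes, 0 higher and 3 lower in DU145, were 0 higher and 19 lower of 29 in PC3, with a difference between lines for 5. The replication-dependent histones, with 0 calls in DU145, had 12 lower of 21 in PC3 and a difference for 8, which became 3 without replicate b of miR-224 in PC3 and 13 without replicate a of it. For replication genes the 5 became 1 without replicate b of miR-224 in PC3 and 7 without replicate c of miR-452 in DU145.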

How the data were processed

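For each Human Gene 1.0 ST array, 100 ng of DU145 or PC3 RNA was labelled with the Ambion WT Expression Kit, per the labels' protocols. The authors deposited log2 values, made with RMA16 in GeneSpringGX 11.0 for each line by itself, per the series' design text. The authors left out 1 DU145 scrambled array for bad performance. RMA16 is understood to add 16 before the logarithm, which would understate folds of weak genes; every value lay above 4. The genome build is not given in the sources used here.

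Of 28869 features, 19310 with 1 symbol were kept (1752 had several, 7807 none), symbols were updated by Entrez number in the RefSeq table of GRCh38.p14 (19279 matched), and features were averaged to 18377 genes, 685 of them from several features, and none was filtered out by level. MicroRNA sequences are RefSeq's.

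Groups were compared with limma 3.58.1 in R 4.3.3, with 4 group means over the 7 DU145 arrays (3 residual degrees of freedom) and over the 8 PC3 arrays (4), and 8 means over 15 arrays (7) for the difference between lines. Tests were two-sided with Benjamini-Hochberg adjustment, and the fit was tested on simulated data. The number of arrays limits the precision. Where a group is left with 1 array, that array is taken to vary like the other groups.

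The comparison, the 38 gene lists (661 of 731 entries measured) and the naming rule were chosen with earlier results of these data known. Named were the 15 largest rises and falls among genes that passed with groups that did not overlap, up to 4 members that passed in each list (or up to 2 with the smallest p), up to 8 per direction shared with PC3 and 8 for the difference between lines, GABRE, and AXL with its relatives; of the list members, a selection is printed. Lists are described by counts and medians, with no set test. Alternatives are in the closing section.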

Additional observations from a re-analysis of the deposited data

Results flagged for a closer look

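The difference between miR-224 and miR-452 was itself different in DU145 and PC3 for 1050 genes, by a contrast of both lines in 1 limma fit. That count ran from 286 to 1573 with single arrays left out. With the replicate letter as a block in the fit, the count was 115. The 8 genes with the smallest p for this contrast without a block were IFI44L (2.28, DU145 minus PC3), GRAMD1B (-1.35), B3GALNT1 (-1.36), IL13RA2 (1.44), OAS1 (1.56), INHBA (-1.30), OXTR (1.09) and TMEM156 (-1.39). Each of the 8 passed with every array of either line left out.

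Of these, TMEM156 moved in DU145, with 6.73 and 6.62 with miR-224, against 7.68 and 7.85 with miR-452, 7.59 scrambled and 7.67 and 7.61 untransfected (-1.09 ± 0.09, adjusted p = 0.000528), while in PC3 it differed by 0.31 (adjusted p = 0.0686). GRAMD1B passed in both lines with opposite signs. B3GALNT1, which makes the blood group P globoside, differed by -0.32 in DU145 (adjusted p = 0.074) and by 1.04 in PC3.

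The other 5 did not pass in DU145. IL13RA2, a decoy receptor of interleukin 13, lay between 4.67 and 4.77 on all 7 DU145 arrays, near the lowest value of that line (4.49), and differed by -1.44 in PC3. INHBA, a subunit of activin, differed by -0.02 in DU145 and 1.28 in PC3, and OXTR, the oxytocin receptor, by 0.15 and -0.94. The part that low levels in one line have in the 1050 genes was not tested.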

How the results depend on the processing

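With one or the other miR-224 array left out, 48 of 104 named genes that passed no longer did, as did 23 without an untransfected array or with only the compared arrays in the fit, 5 and 7 without replicate a and c of miR-452, and 22 with the replicate block; 52 passed under every alternative and none reversed. With each array left out, genes called in DU145 ranged from 254 to 2152 (1086 with all), genes shared with PC3 from 177 to 862 (521) and genes that differed between lines from 286 to 1573 (1050). With only the compared arrays, which leaves fewer residual degrees of freedom, the counts called and differing were 612 and 571, and all 15 arrays in 1 fit gave 1714 called. At least 2-fold left 47, 14 and 58. The same-lettered arrays of the 2 mimics deviated with r = -0.3096 across genes. With 2 arrays per mimic, this value cannot decide whether the letters mark arrays that belong together. The replicate block gave 728 called, 307 shared and 115 differing. A block with the miR-452 letters crossed, chosen after the data were seen, gave 1585 called and 511 differing; the cause was not tested. A percentile 20 filter, single features, quantile normalization, and trend with robust moderation kept these counts within 1.5 times. Seed matches in 3′ untranslated regions were planned and not run, since no transcript sequences were used here. Values near the bottom of the array's range limit small differences of weak genes.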
